A study of Mus musculus with 13 samples.

Results

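The enzymes that make serine and pass its carbon to folate were followed in the liver RNA of WT and Nod2-/- mice. They were chosen as 10 named genes in 3 groups, of 53465 genes in the table. Phgdh, Psat1 and Psph form the serine synthesis group of 3 genes. Shmt1, Mthfd1 and Aldh1l1 are the 3 cytosolic folate enzymes. Shmt2, Mthfd2, Mthfd1l and Aldh1l2 are the 4 mitochondrial folate enzymes. All 10 were among the 13545 genes that had enough counts to be tested, but 7 of the 10 had at least 10 counts in every mouse and Phgdh, Psat1 and Aldh1l2 did not. Aldh1l2 was kept through a few livers, as it dropped out of the test when Nod2-/- mouse 4 or 7 was left out. Asns, Phgdh, Mthfd1l and Mthfd2 had been singled out by the study from these same mice, so their direction here is not independent evidence.

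The mice were BALB/c, an inbred laboratory strain, and male by the study's methods, with 6 WT and 7 Nod2-/- animals and 1 liver library for each. Nod2 encodes an intracellular sensor of bacterial peptidoglycan, and the deletion was not limited to a cell type. Mice of both genotypes had received DMBA, a carcinogen, as pups, and were then fed a high-fat diet (HFD), so that no untreated or chow-fed liver is compared here. The labels give an age of 30 weeks and the disease state "cancer" for every mouse, and do not say whether the piece sequenced held tumor tissue. The animals were not littermates from heterozygous parents, so that genotype cannot be told apart from differences between the breeding lines. Nod2 itself had 0 to 4 counts in WT and 1 to 6 counts in Nod2-/- libraries, too few to check the labels. The libraries held 13824780 to 20579984 counted reads.

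Serine is made from a glycolytic intermediate in a chain of reactions, in which Phgdh takes the committed step, Psat1 adds the amino group and Psph removes the phosphate. Serine hydroxymethyltransferases then move a carbon from serine to tetrahydrofolate, in the cytosol by Shmt1 and in mitochondria by Shmt2. In mitochondria the carbon is oxidized by Mthfd2 and released as formate by Mthfd1l, or burned to carbon dioxide by Aldh1l2, and in the cytosol Mthfd1 takes formate up into folate again while Aldh1l1 oxidizes the surplus. Adult liver is known as an organ with much Shmt1, Mthfd1 and Aldh1l1, whereas Mthfd2 is known as an enzyme of embryonic and dividing cells.

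The bases before the transcription start of 5 of these genes are shown because the comparisons turn on them: Phgdh stands for serine synthesis, Shmt2 is the abundant mitochondrial enzyme, and Mthfd2 and Mthfd1l are compared with their cytosolic counterpart Mthfd1. Each stretch has 250 bases, is written 5' to 3' and ends at the base before the start, with RefSeq coordinates on GRCm38.p6. Capitals mark GGGCGG on either strand, the GC box.
Phgdh, chr3:98339970-98340219, minus strand: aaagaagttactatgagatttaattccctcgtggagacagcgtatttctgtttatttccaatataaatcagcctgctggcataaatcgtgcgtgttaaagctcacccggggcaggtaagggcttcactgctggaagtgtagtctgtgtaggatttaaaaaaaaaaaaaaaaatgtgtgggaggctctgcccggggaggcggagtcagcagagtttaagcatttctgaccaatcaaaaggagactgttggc
Mthfd1, chr12:76254982-76255231, plus strand: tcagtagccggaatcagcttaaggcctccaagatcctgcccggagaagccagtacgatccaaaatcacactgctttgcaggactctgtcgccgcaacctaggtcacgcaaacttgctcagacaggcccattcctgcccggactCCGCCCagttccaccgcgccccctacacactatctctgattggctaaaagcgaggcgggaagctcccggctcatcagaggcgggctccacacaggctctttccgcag
Shmt2, chr10:127522445-127522694, minus strand: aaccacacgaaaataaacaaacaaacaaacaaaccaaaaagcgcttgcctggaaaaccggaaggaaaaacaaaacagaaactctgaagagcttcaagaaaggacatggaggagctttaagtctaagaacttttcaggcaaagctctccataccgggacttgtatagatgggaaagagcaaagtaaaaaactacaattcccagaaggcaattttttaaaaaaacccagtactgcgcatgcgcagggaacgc
Mthfd2, chr6:83317605-83317854, minus strand: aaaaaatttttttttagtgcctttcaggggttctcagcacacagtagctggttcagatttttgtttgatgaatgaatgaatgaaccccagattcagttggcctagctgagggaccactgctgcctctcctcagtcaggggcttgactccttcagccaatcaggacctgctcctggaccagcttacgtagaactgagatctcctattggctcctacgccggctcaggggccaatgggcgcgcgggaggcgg
Mthfd1l, chr10:3972825-3973074, plus strand: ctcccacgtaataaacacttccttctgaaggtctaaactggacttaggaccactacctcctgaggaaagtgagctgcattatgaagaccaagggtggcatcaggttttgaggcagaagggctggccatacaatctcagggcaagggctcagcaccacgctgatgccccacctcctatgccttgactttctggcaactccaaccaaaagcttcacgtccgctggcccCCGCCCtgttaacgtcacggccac

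Windows of 300 bases, from 250 before to 50 after the start, were found for 9 of the 10 enzymes, and Aldh1l2 was not matched. GGGCGG lay in a window of 6 of the 9 enzymes and in 35.7% of 32851 promoter windows of all genes. The windows of Phgdh, Shmt2 and Mthfd2 did not hold these letters on either strand. TGATGNAA, the composite C/EBP-ATF site that Atf4 can bind, was in the windows of 0 of 9 enzymes and in 3.97% of all windows, and CACGTG, the E-box, was in 0 of 9 and in 7.15%. The window of Asns, the asparagine synthetase gene, held 1 match to TGATGNAA. A match or its lack describes these letters in this window and not the binding of a factor.

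The 10 enzymes fell into abundant and scant transcripts in WT liver. On the scale of CPM (counts scaled for library depth) per kilobase of exon, Aldh1l1 had the highest level, at 229 ± 40.7 (SD, n = 6). Shmt2 at 67.1 ± 6.65, Shmt1 at 56.0 ± 11.8 and Mthfd1 at 50.003 ± 5.195 followed, and the ranges given by these SDs overlapped between neighbours. The other 6 enzymes were far lower. Psph had 3.20 ± 0.358 CPM per kb, Mthfd1l 1.42 ± 0.547, Psat1 0.826 ± 1.25, Mthfd2 0.550 ± 0.150, Phgdh 0.306 ± 0.446 and Aldh1l2 0.0967 ± 0.150. Among these, Psph stood above its neighbour Mthfd1l by more than the SDs, and the neighbours from Mthfd1l down to Aldh1l2 did not differ beyond their spread. The gap between the abundant and the scant enzymes did not follow the compartments, since mitochondrial Shmt2 was close to cytosolic Shmt1 and Mthfd1, though well below Aldh1l1.

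In Nod2-/- livers, Mthfd2 rose, and it was the 1 enzyme of 10 past 5% FDR. Over all tested genes 1.16% passed in either direction and 0.650% were higher in Nod2-/- mice. At an unadjusted p under 0.05, 4 of the 10 enzymes were higher (Phgdh, Psph, Mthfd2 and Mthfd1l), beside 12.9% of all tested genes, and 2 were lower (Mthfd1 and Shmt2), beside 10.2% of all tested genes. DESeq2 and limma's voom with quality weights each called 3 of the 10 (Mthfd2, Mthfd1l and Shmt2), where they called 8.41% and 6.22% of all genes they tested. All 3 serine synthesis genes had positive log2 fold changes, with a median of 1.33, all 3 cytosolic enzymes had negative ones, with a median of -0.26, and 3 of the 4 mitochondrial enzymes had positive ones, with a median of 1.11 over the 4. The median over all 13545 tested genes was 0.02. Fold changes are Nod2-/- against WT from edgeR's quasi-likelihood test, adjusted p follows Benjamini and Hochberg over every gene tested, and normalized counts are counts put on the scale of the average effective library. In bulk liver, fewer cells of a type and less RNA per cell cannot be told apart.

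**Figure D1:**
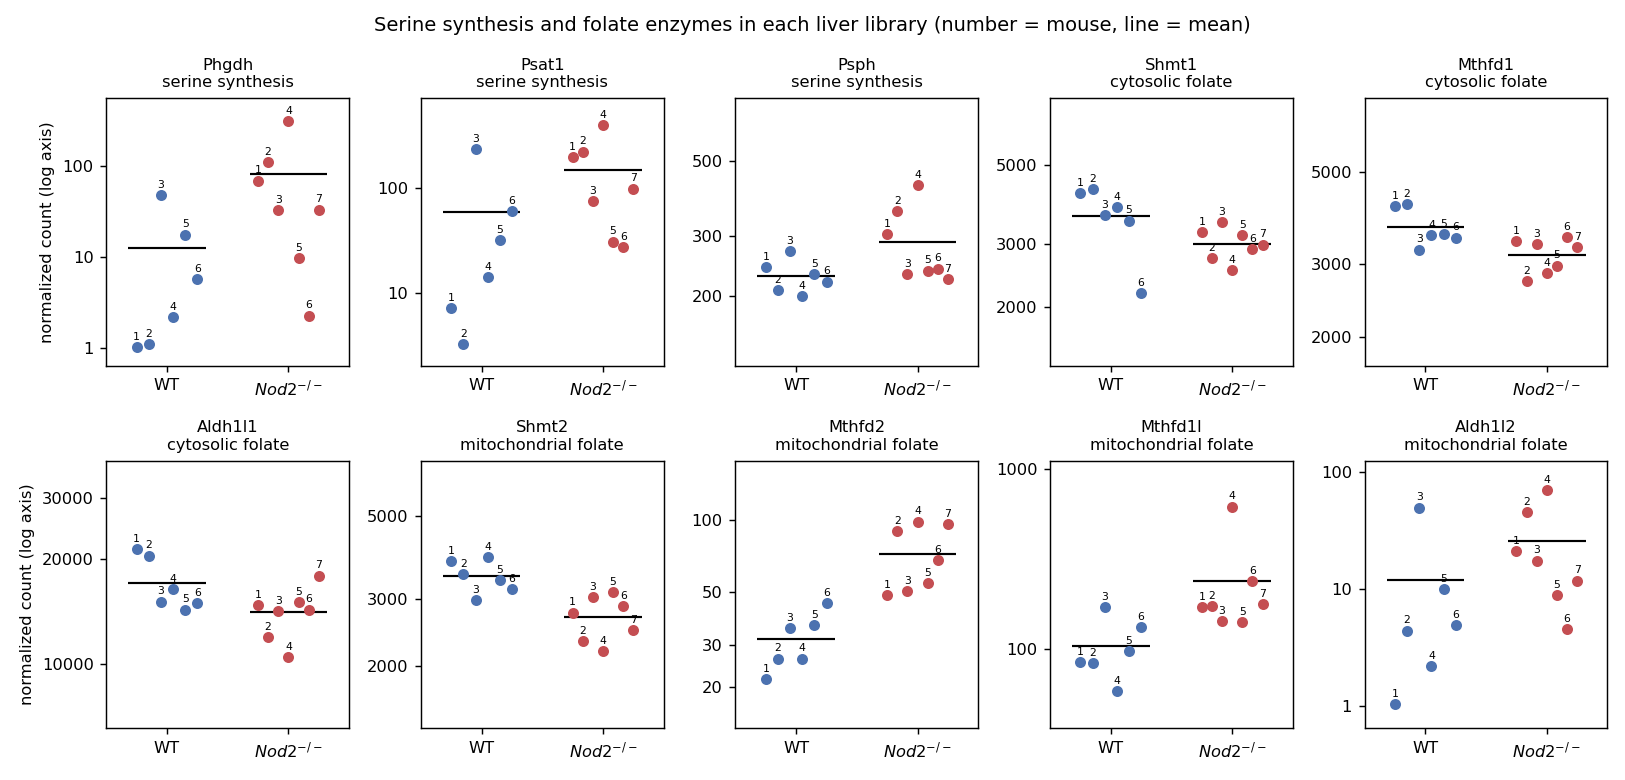
Normalized count of each enzyme in each of the 13 livers on a log axis with its own range per panel, WT in blue and Nod2-/- in red, with the mouse number above each point and a line at the group mean. Mthfd2 has no overlap between the genotypes, while Phgdh, Psat1 and Aldh1l2 spread widely within each genotype, with WT mouse 3 and Nod2-/- mouse 4 at the top.

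Phgdh (chr3:98313170-98339990), the committed enzyme of serine synthesis, was scant in WT livers, with a lowest value of 1.03, a median of 3.96 and a highest value of 47.9 normalized counts. In Nod2-/- livers the lowest value was 2.28, the median 33.3 and the highest 315. The groups overlapped, and 3 of 7 Nod2-/- livers lay above every WT liver. The mean was 12.6 ± 18.4 (SD, n = 6) in WT and 82.0 ± 109 (SD, n = 7) in Nod2-/- mice. The log2 fold change was 2.66 (SE 0.99) with an edgeR adjusted p of 0.134, and the two-sided exact permutation test on log2 CPM gave p = 0.0571. This value rested on single mice, as the log2 fold change of Phgdh was 3.86 without WT mouse 3 and 1.74 without Nod2-/- mouse 4.

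Psat1 (chr19:15904678-15947337), the aminotransferase of the pathway, ranged from 3.29 to 233 normalized counts in WT livers with a median of 23.1, and from 27.3 to 394 in Nod2-/- livers with a median of 98.0. A single Nod2-/- liver, mouse 4, was above the highest WT liver, mouse 3. Its log2 fold change was 1.33 (SE 0.82, edgeR adjusted p 0.343), and it was 2.62 without WT mouse 3 and 0.86 without Nod2-/- mouse 4. Psph (chr5:129765558-129787449), the phosphatase of the last step, varied much less, from 201 to 271 in WT livers with a median of 227 and from 224 to 425 in Nod2-/- livers with a median of 241. Nod2-/- mice 1, 2 and 4 were above all WT mice and the other 4 lay within the WT range. Psph had a log2 fold change of 0.33 (SE 0.15) and an edgeR adjusted p of 0.214. Psph overlaps Cct6a on the opposite strand, and whether strand was used in counting is not given in the sources used here.

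The spread of Phgdh and Psat1 was within the genotypes as much as between them. The highest WT liver had 46.7 times the Phgdh and 70.9 times the Psat1 of the lowest WT liver. Among Nod2-/- livers these ratios were 138 for Phgdh and 14.4 for Psat1. For Psph and the abundant folate enzymes the highest liver of a genotype had at most 1.96 times the lowest. WT mouse 3, the WT liver with the most Phgdh, Psat1, Psph and Aldh1l2, also had the most Spp1, the osteopontin gene, among WT mice, 3456 normalized counts where the other WT livers had 511 to 1832. Nod2-/- mouse 4, the Nod2-/- liver highest in the same 4 enzymes, had the most Spp1 among Nod2-/- mice, 6425 where the others had 1541 to 4756. WT mouse 3 also had the highest WT sums of proliferation (315), macrophage (2650), stellate cell (7241) and endothelial (3144) markers. Nod2-/- mouse 4 was not the highest of its genotype in these sums. Spp1 was on a list of 5 bile duct and progenitor markers with Krt19, Krt7, Epcam and Sox9, and made up 86.5% to 96.7% of the sum of this list in each liver. The bile duct keratin Krt19 was not high in these livers, at 13.6 in WT mouse 3 (range of WT livers 10.3 to 71.2) and 19.9 in Nod2-/- mouse 4 (range of Nod2-/- livers 10.6 to 22.9). Krt7 was the highest of its genotype in both, at 25.3 and 26.9, near the next livers in WT (23.7) and above them in Nod2-/- mice (18.5). Sox9 ranked 2 in its genotype in both, at 60.6 and 156. Between the genotypes, Sox9 rose past 5% FDR (log2 fold change 1.29, SE 0.25, edgeR adjusted p 0.0324), Spp1 had a log2 fold change of 1.30 (edgeR adjusted p 0.109), and Krt19, Krt7 and Epcam were at -0.40, -0.05 and 0.24, with unadjusted p-values above 0.05. The part of these cells in the enzyme values was not tested.

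The 3 cytosolic folate enzymes were lower on average in Nod2-/- livers by small amounts. Of the 3, 1 was lower at an unadjusted p under 0.05, beside 10.2% of all tested genes. With edgeR, DESeq2 or voom 0 of 3 passed 5% FDR, where these tools called 1.16%, 8.41% and 6.22% of all genes they tested. Mthfd1 (chr12:76255298-76319803), which joins formate to folate and interconverts its one-carbon forms, had 3252, 3527 and 4186 normalized counts as lowest, median and highest value in WT livers and 2736, 3292 and 3481 in Nod2-/- livers. The groups overlapped, with 3 of 7 Nod2-/- livers below all WT livers. Its log2 fold change was -0.22 (SE 0.09) with an edgeR adjusted p of 0.171, and the exact permutation test gave p = 0.0181. Aldh1l1 (chr6:90486427-90600203), the formyltetrahydrofolate dehydrogenase of the cytosol, had the same direction, with 14354 to 21382 in WT livers (median 15769) and 10461 to 17965 in Nod2-/- livers (median 14351). For Aldh1l1 4 Nod2-/- livers were below all WT livers, and the log2 fold change was -0.28 (SE 0.14, edgeR adjusted p 0.255). Shmt1 (chr11:60788104-60811718), the cytosolic serine hydroxymethyltransferase, had 2193 to 4300 in WT livers (median 3722) and 2536 to 3460 in Nod2-/- livers (median 2998). No Nod2-/- liver was outside the WT range of Shmt1, whose lowest liver was WT mouse 6, and its log2 fold change was -0.26 (SE 0.14, edgeR adjusted p 0.267). Shmt1 overlaps Smcr8 on the opposite strand.

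Mthfd2 and Shmt2, both mitochondrial, went in opposite directions. Mthfd2 (chr6:83305691-83325908), the dehydrogenase and cyclohydrolase, had 21.5, 26.3, 35.2, 26.3, 36.5 and 45.03 normalized counts in WT mice 1 to 6. In Nod2-/- mice 1 to 7 it had 48.6, 90.2, 50.3, 98.7, 54.5, 68.3 and 96.0. Every Nod2-/- liver was above every WT liver, as was so for 0.753% of all tested genes in this direction. The mean was 31.8 ± 8.65 (SD, n = 6) in WT and 72.4 ± 22.2 (SD, n = 7) in Nod2-/- mice, 2.28 times as high. The log2 fold change was 1.18 (SE 0.24) with an edgeR adjusted p of 0.0345, and the exact permutation test gave p = 0.000583, the smallest that 6 against 7 mice allow. The adjusted p was above 0.05 in 7 of the 13 edgeR fits that left out 1 mouse, in which the log2 fold change stayed between 1.09 and 1.31.

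Shmt2 (chr10:127517123-127522444), the mitochondrial hydroxymethyltransferase, had 2990, 3442 and 3893 normalized counts as lowest, median and highest value in WT livers and 2184, 2768 and 3135 in Nod2-/- livers. The ranges overlapped slightly, with 5 of 7 Nod2-/- livers below all WT livers, and WT mouse 3 was the lowest WT liver and Nod2-/- mouse 4 the lowest of all. The mean was 3459 ± 343 (SD, n = 6) in WT and 2689 ± 362 (SD, n = 7) in Nod2-/- mice. The log2 fold change was -0.36 (SE 0.10), the edgeR adjusted p was 0.0769, and the exact permutation test gave p = 0.00408. Shmt2 passed 5% FDR with DESeq2 (adjusted p 0.0116) and with voom (adjusted p 0.0331).

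Mthfd1l (chr10:3973118-4167081), the mitochondrial enzyme that releases formate, had 58.1, 90.6 and 170 normalized counts as lowest, median and highest value in WT livers and 141, 172 and 614 in Nod2-/- livers. Most Nod2-/- livers, 5 of 7, were above all WT livers, WT mouse 3 was the highest of the WT livers, and Nod2-/- mouse 4 had more than any other liver. The mean was 104 ± 40.2 (SD, n = 6) in WT and 237 ± 170 (SD, n = 7) in Nod2-/- mice. Its log2 fold change was 1.18 (SE 0.36) with an edgeR adjusted p of 0.0903 and an exact permutation p of 0.00699. Mthfd1l passed with DESeq2 (adjusted p 0.0197) and voom (adjusted p 0.0463), and its log2 fold change was 0.73 in edgeR without Nod2-/- mouse 4. Aldh1l2 (chr10:83487450-83534140), the mitochondrial formyltetrahydrofolate dehydrogenase, had 1.03 to 49.7 in WT livers (median 4.65) and 4.55 to 69.8 in Nod2-/- livers (median 17.5). WT mouse 3 was again far above the other WT livers, and 1 Nod2-/- liver, mouse 4, exceeded it. The log2 fold change of Aldh1l2 was 1.05 (SE 0.77, edgeR adjusted p 0.421), and 2.47 without WT mouse 3, where the other 5 WT livers had 1 to 9 counts and the gene passed the expression filter through Nod2-/- livers. Aldh1l2 overlaps D10Wsu102e on the opposite strand.

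**Figure D2:**
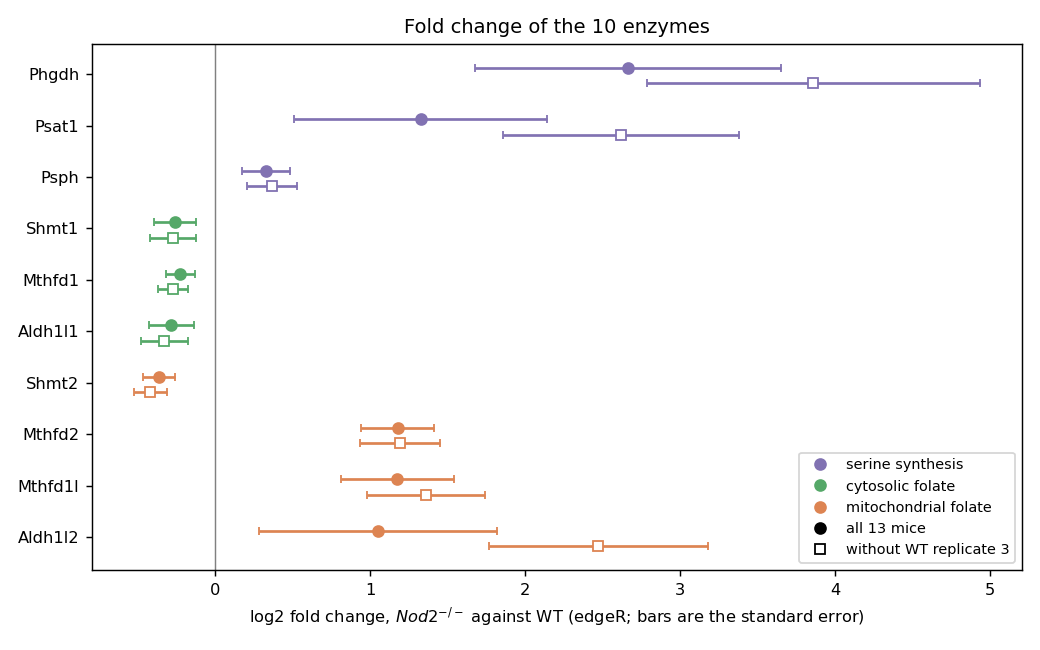
Log2 fold change of each enzyme in Nod2-/- against WT livers from edgeR (circles, all 13 mice; squares, without WT mouse 3), with bars of 1 standard error and colors by group. The 3 cytosolic enzymes and Shmt2 lie left of 0, the other 6 right of 0, and Phgdh, Psat1 and Aldh1l2 move furthest when WT mouse 3 is left out, to 3.86, 2.62 and 2.47.

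Without WT mouse 3, 6 of the 10 enzymes passed 5% FDR (Phgdh, Psat1, Aldh1l2, Mthfd1l and Mthfd2 higher, Shmt2 lower), where 8.49% of all tested genes passed. Of these, Phgdh, Psat1 and Aldh1l2 had at least 10 counts in 1, 3 and 0 of the 5 WT livers left, so that they passed the expression filter through Nod2-/- livers, where they were higher, and their calls in this fit lend no support. The other 3, Mthfd2, Mthfd1l and Shmt2, had at least 10 counts in every mouse. The direction of all 10 enzymes was the same with and without this mouse. Leaving out Nod2-/- mouse 4 left 0 of the 9 enzymes then tested past 5% FDR in edgeR, where 67 of 13422 genes passed. At an unadjusted p under 0.05, 2 enzymes were higher, beside 10.2% of all tested genes, and 1 was lower, beside 7.9%. The adjusted p in this fit was 0.0645 for Mthfd2 and 0.135 for both Mthfd1l and Shmt2.

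Each mitochondrial enzyme was then set against its cytosolic counterpart within each mouse, as the log2 ratio of normalized counts after adding 1 to each. Mthfd2 and Mthfd1l together do in mitochondria what Mthfd1 does in the cytosol, and both were set against Mthfd1. For 1000 counts of Mthfd1 there were 5.21 to 12.96 counts of Mthfd2 in WT livers and 14.3 to 34.6 in Nod2-/- livers. The ranges did not overlap. The mean log2 ratio of Mthfd2 to Mthfd1 was -6.85 ± 0.50 (SD, n = 6) in WT and -5.48 ± 0.53 (SD, n = 7) in Nod2-/- mice, a difference of 1.37 (two-sided exact permutation test, p = 0.000583, adjusted p = 0.00233 over 4 ratios). Counts of Mthfd1l for 1000 of Mthfd1 were 16.5 to 52.3 in WT livers and 42.6 to 215 in Nod2-/- livers, with 4 of 7 Nod2-/- livers above all WT livers. The difference of the mean log2 ratio of Mthfd1l to Mthfd1 was 1.28 (exact permutation test, p = 0.00408, adjusted p = 0.00816). These ratios share Mthfd1, which was itself lower on average in Nod2-/- livers, and are not independent of each other.

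For the pair of hydroxymethyltransferases no shift of this kind was detected. The mean log2 ratio of Shmt2 to Shmt1 was -0.03 ± 0.31 (SD, n = 6) in WT and -0.17 ± 0.10 (SD, n = 7) in Nod2-/- mice, a difference of -0.14 (exact permutation test, p = 0.339). WT mouse 6, with the least Shmt1, had the highest ratio, and the difference was -0.02 without it. For Aldh1l2 to Aldh1l1 the log2 ratio was -11.25 ± 1.79 (SD, n = 6) in WT and -9.51 ± 1.47 (SD, n = 7) in Nod2-/- livers. This difference of 1.74 did not pass the test (exact permutation test, p = 0.0845, adjusted p = 0.113). It was 2.34 without WT mouse 3 (exact permutation test, adjusted p = 0.0236). The 5 WT livers left then had 1 to 9 counts of Aldh1l2, so that this pass lends no support. The scant Aldh1l2 made this ratio depend on the offset, and the difference was 1.85 with 0.5 and 1.27 with 5 added in place of 1.

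**Figure D3:**
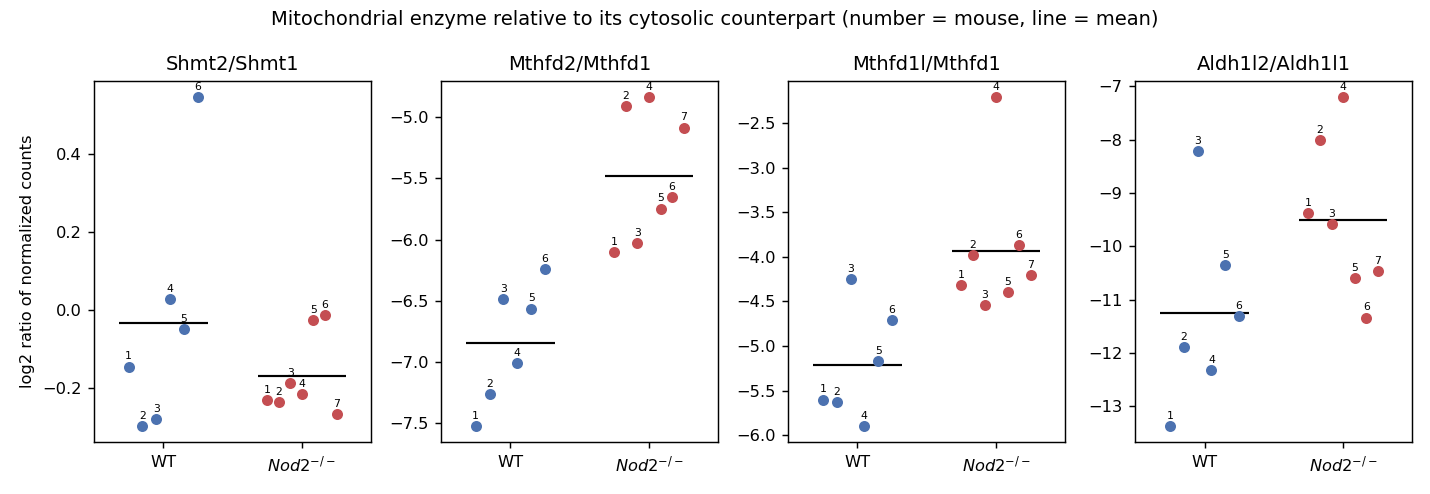
Log2 ratio of each mitochondrial enzyme to its cytosolic counterpart in each liver, each panel with its own axis, WT in blue and Nod2-/- in red, with the mouse number above each point and a line at the mean. Mthfd2/Mthfd1 separates the genotypes (difference of means 1.37), Mthfd1l/Mthfd1 does so in part (1.28), and Shmt2/Shmt1 overlaps throughout (-0.14).

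The enzymes also varied together from mouse to mouse within a genotype. With the genotype mean of log2 CPM removed, 45 pairs were correlated over the 13 livers, with permutation within genotype and adjustment over the 45 pairs. Phgdh and Aldh1l2, from different pathways and compartments, had the highest correlation, with r = 0.938 (permutation p = 1e-05, the smallest that the permutations can give, adjusted p = 0.00045) and rho = 0.951 (permutation p = 2e-05, adjusted p = 0.00045). Without the 2 livers with the most extreme Phgdh, WT mouse 3 and Nod2-/- mouse 4, r was 0.925. Phgdh and Psat1 had r = 0.900 (permutation p = 2e-05, adjusted p = 0.00045) and rho = 0.940 (permutation p = 1e-05, adjusted p = 0.00045), and r = 0.854 without these livers. Psph followed Phgdh with r = 0.842 (permutation p = 0.00103, adjusted p = 0.00752) and rho = 0.698 (permutation p = 0.0175, adjusted p = 0.0481), and with r = 0.677 without the same livers. The points of a pair share their libraries, and Spp1 was highest of each genotype in the same livers as Phgdh.

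Shmt2 varied against the scant enzymes. Shmt2 and Mthfd2 had r = -0.839 (permutation p = 0.00237, adjusted p = 0.0097) and rho = -0.808 (permutation p = 0.00354, adjusted p = 0.0229), and r = -0.838 without WT mouse 3 and Nod2-/- mouse 4. Shmt2 and Phgdh had r = -0.808 (permutation p = 0.00231, adjusted p = 0.0097) and rho = -0.813 (permutation p = 0.00244, adjusted p = 0.022), and r = -0.634 without these livers. Mthfd2 was also inversely related to Shmt1, with r = -0.746 (permutation p = 0.00013, adjusted p = 0.00146) and rho = -0.830 (permutation p = 0.00045, adjusted p = 0.00675), and r was -0.753 without WT mouse 6 and Nod2-/- mouse 4. Mthfd1 and Aldh1l1, both abundant and cytosolic, had r = 0.779 (permutation p = 0.00455, adjusted p = 0.0158) and rho = 0.665 (permutation p = 0.0203, adjusted p = 0.0481), and r = 0.670 without WT mice 1 and 2.

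The relation of Mthfd2 to serine synthesis among mice of a genotype did not pass the adjusted test. Mthfd2 and Phgdh had r = 0.490 (permutation p = 0.129, adjusted p = 0.152) and rho = 0.522 (permutation p = 0.0987, adjusted p = 0.135), and r = 0.307 without WT mouse 3 and Nod2-/- mouse 4. Mthfd1l and Phgdh had r = 0.632 (permutation p = 0.0346, adjusted p = 0.0556) and rho = 0.456 (permutation p = 0.131, adjusted p = 0.164). This relation rested on the same 2 livers, since r was -0.04 without them. Mthfd1l and Psat1 had r = 0.645 (permutation p = 0.013, adjusted p = 0.0345) and rho = 0.478 (permutation p = 0.111, adjusted p = 0.143), and r = 0.235 without these livers. Mthfd1l and Psph had r = 0.703 (permutation p = 0.0138, adjusted p = 0.0345) and rho = 0.423 (permutation p = 0.163, adjusted p = 0.193), and r = 0.567 without Nod2-/- mice 2 and 4. Both passed on r and not on rho.

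**Figure D4:**
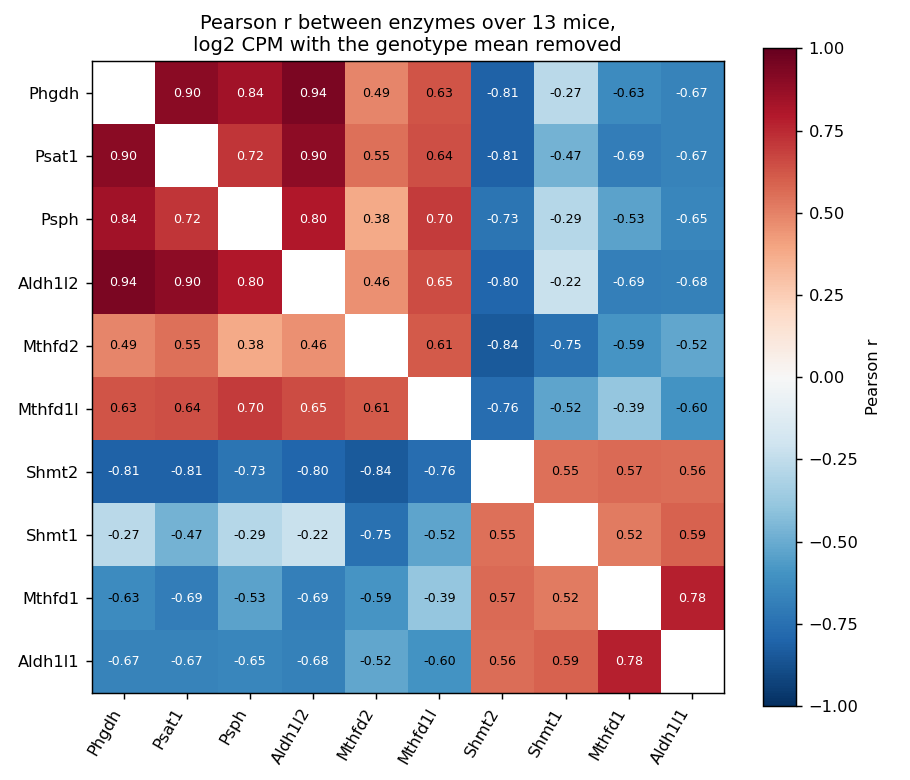
Pearson r of each pair of enzymes over the 13 livers, from log2 CPM with the genotype mean removed, red for positive and blue for negative r. Phgdh, Psat1, Psph, Aldh1l2, Mthfd2 and Mthfd1l are positively correlated with one another, Shmt2 is with the cytosolic enzymes Shmt1, Mthfd1 and Aldh1l1, and r is negative between these sets, down to -0.84 for Shmt2 with Mthfd2.

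The genes whose residual pattern was most like that of an enzyme were looked for among 11499 genes. For Phgdh they were Rab6a (r = 0.967), Sgsm1 (r = 0.960), Ptgfrn (r = 0.957), Furin (r = 0.947) and Tspan15 (r = 0.941) over the 13 livers. For Mthfd2 they were Cyp20a1 (r = 0.919), 2610301B20Rik (r = 0.913), Klhdc10 (r = 0.899), Abracl (r = 0.878) and Etf1 (r = 0.877). For Shmt2 they included Slc46a3 (r = 0.955), Adck1 (r = 0.915), Tex264 (r = 0.912) and Gm5512 (r = 0.904). None of the 3 lists held another of the 10 enzymes, and the values are descriptions of the closest of many genes.

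Genes around the enzymes were read from 10 lists. Of 9 genes of folate uptake and reduction, 8 were tested and 1 passed 5% FDR, Slc25a32, the carrier that brings folate into mitochondria, which fell. Slc25a32 had 718 to 879 normalized counts in WT and 408 to 670 in Nod2-/- livers, without overlap, and a log2 fold change of -0.46 (SE 0.10, edgeR adjusted p 0.0430). Over all tested genes 0.509% passed in this direction and 0.687% were lower without overlap. Shmt2, which uses the folate this carrier brings in, had a log2 fold change of -0.36, and Mthfd2 rose by 1.18 on the same scale. The other 7 tested genes of this list, among them the thymidylate synthase Tyms (log2 fold change -0.11), had unadjusted p-values above 0.05, and Folr1 had at most 3 counts in every library. Of 5 other folate enzymes 2 were higher at an unadjusted p under 0.05, beside 12.9% of all tested genes. None of these 5 passed 5% FDR with edgeR, DESeq2 or voom. One of these 5, Mthfd2l, the mitochondrial relative of Mthfd2, had 34.4 ± 5.80 (SD, n = 6) normalized counts in WT and 47.9 ± 7.11 (SD, n = 7) in Nod2-/- livers (log2 fold change 0.48, edgeR adjusted p 0.109).

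Choline oxidation, which also feeds one-carbon units to mitochondrial folate, lay below 0 as well. All 5 of its enzymes had negative log2 fold changes with an unadjusted p under 0.05, beside 10.2% of all tested genes, and a median of -0.49. At 5% FDR 0 of 5 passed with edgeR, 4 with DESeq2 (Aldh7a1, Chdh, Dmgdh and Sardh) and 2 with voom (Chdh and Dmgdh). DESeq2 and voom called 8.41% and 6.22% of all genes they tested, in either direction. Dmgdh, the dimethylglycine dehydrogenase, had 8261 to 14395 normalized counts in WT and 3516 to 8914 in Nod2-/- livers (log2 fold change -0.72, SE 0.19, edgeR adjusted p 0.0688), with 6 of 7 Nod2-/- livers below all WT livers. Chdh, the choline dehydrogenase, was at -0.52 (edgeR adjusted p 0.0659), Sardh, the sarcosine dehydrogenase, at -0.49 (0.122), Aldh7a1, which oxidizes betaine aldehyde, at -0.36 (0.116) and Pipox at -0.35 (0.185). The 4 genes of the glycine cleavage system had a median of -0.16, with Dld alone under an unadjusted p of 0.05 (log2 fold change -0.27, edgeR adjusted p 0.155), and 0 of 4 passed with any of the tools.

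Genes of pathways that use one-carbon units or sulfur amino acids came next. Of the 12 methionine cycle genes, Nnmt, a methyltransferase that uses S-adenosylmethionine, had a log2 fold change of 1.72 (edgeR adjusted p 0.127) and Ahcy, which clears S-adenosylhomocysteine, of -0.59 (edgeR adjusted p 0.131), and the median of the list was -0.14. Of 6 transsulfuration genes Csad was at 1.07 (edgeR adjusted p 0.0899) and the median was 0.06. The 6 genes of purine synthesis, a pathway in which some steps use formyl groups from folate, had a median of -0.14. Adsl, whose own step uses no folate, was at -0.32 (edgeR adjusted p 0.106). Of these 12, 6 and 6 genes, 0 passed 5% FDR with edgeR or voom, and Csad and Adsl passed with DESeq2. The 4 genes named were picked by an unadjusted p under 0.05 in edgeR. By this measure 1 of the 12, 1 of the 6 and 0 of the 6 genes were higher, beside 12.9% of all tested genes. In the same order 1, 0 and 1 were lower, beside 10.2% of all tested genes.

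Genes that carry or use serine were mixed in direction. Of 8 genes of serine use, the serine dehydratase Sds had 1307 to 2950 normalized counts in WT and 2269 to 5376 in Nod2-/- livers (log2 fold change 0.94, edgeR adjusted p 0.0673), and its relative Sdsl was at 0.93 (edgeR adjusted p 0.143). Srr, the serine racemase, was at -0.48 (edgeR adjusted p 0.139) and Ptdss1, a phosphatidylserine synthase, at -0.29 (edgeR adjusted p 0.146). Of 6 transporters, Slc1a4 was at 1.54 (edgeR adjusted p 0.0656), Slc1a5 at 1.09 (0.106) and Slc38a2 at -0.35 (0.143), and the mitochondrial serine carrier Sfxn1 at 0.12 (0.477). With edgeR 0 of these 8 and 6 genes passed 5% FDR, while Sds and Slc1a4 passed with DESeq2 and voom, and Slc1a5 with DESeq2. The genes named here other than Sfxn1 were picked by an unadjusted p under 0.05 in edgeR. By this measure 2 of the 8 and 2 of the 6 genes were higher, beside 12.9% of all tested genes. Lower were 2 of the 8 and 1 of the 6, beside 10.2% of all tested genes.

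In the amino acid response, Atf4 activates genes of serine synthesis and mitochondrial folate when amino acids are short. It was read from 15 genes, of which 12 were tested and 2 rose past 5% FDR, beside 0.650% of all tested genes. Atf5, a relative of Atf4, had 3312 to 5074 normalized counts in WT and 6648 to 10368 in Nod2-/- livers (log2 fold change 1.03, SE 0.14, edgeR adjusted p 0.00244). Its groups did not overlap, as was so for 0.753% of all tested genes in this direction. Fgf21, a hormone released by stressed liver, had 53.3 to 113 in WT and 109 to 594 in Nod2-/- livers (log2 fold change 1.70, SE 0.32, edgeR adjusted p 0.0261). Atf4 itself was at 0.46 (edgeR adjusted p 0.0889). Asns had 2.19 to 40.7 in WT and 26.4 to 963 in Nod2-/- livers (log2 fold change 3.87, SE 0.93, edgeR adjusted p 0.0576). Chac1 was at -0.94 (edgeR adjusted p 0.0673), and 7 of the 12 tested genes, among them Trib3 (0.70) and Ddit3 (0.42), had an unadjusted p above 0.05. The median of the list was 0.44. DESeq2 called 6 of 13 genes it tested (Asns, Atf4, Atf5, Fgf21 and Nupr1 higher, Chac1 lower), and voom called Asns, Atf5 and Fgf21 higher and Chac1 lower. These tools called 8.41% and 6.22% of all genes they tested.

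**Figure D5:**
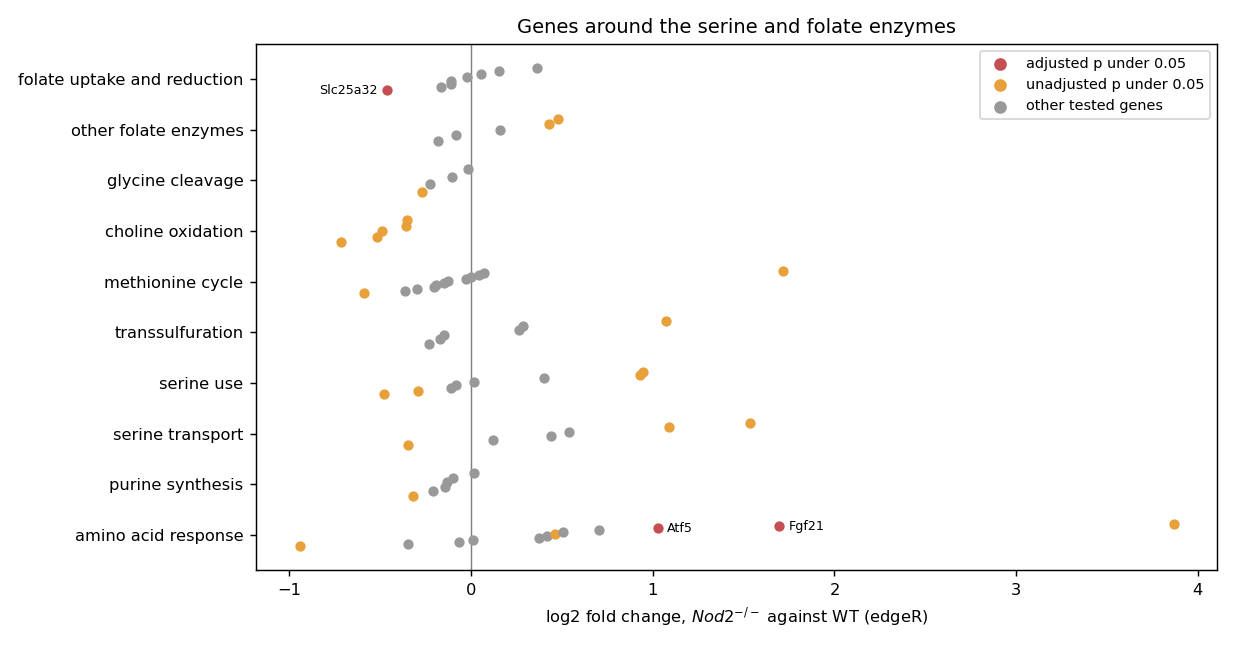
Log2 fold change of each tested gene of the 10 surrounding lists in Nod2-/- against WT livers (edgeR), 1 point per gene, red for an adjusted p under 0.05 and orange for an unadjusted p under 0.05 only. Slc25a32 at -0.46 and Atf5 and Fgf21 at 1.03 and 1.70 pass the adjusted threshold, and all 5 choline oxidation genes lie between -0.72 and -0.35.

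The livers were checked against markers of the cells they could hold. The sum of 8 hepatocyte markers, most of it Alb, the albumin gene, was 1266410 to 1782710 normalized counts in WT and 1332570 to 2787910 in Nod2-/- livers, but 5 of the 8 had negative log2 fold changes and the median was -0.16. Hnf4a, a transcription factor of hepatocytes, had a log2 fold change of -0.34 (edgeR adjusted p 0.0805), and Cps1, an enzyme of the urea cycle, of -0.38 (edgeR adjusted p 0.150). DESeq2 called both lower. Ttr and Apob were at -0.27 and -0.26, F9 at -0.07, Alb at 0.21 and Tat at 0.23. Shmt2 was at -0.36 and the cytosolic enzymes at -0.28 to -0.22. Apoa1, an apolipoprotein, was at 0.53 (edgeR adjusted p 0.198). Of 10 proliferation markers 8 were tested, and 6 were higher at an unadjusted p under 0.05, beside 12.9% of all tested genes. Sums of the 10 were 74.6 to 315 in WT and 189 to 630 in Nod2-/- livers. The 3 livers with the most Mthfd2, Nod2-/- mice 2, 4 and 7, had proliferation sums of 574, 236 and 630. Neutrophil marker sums were 59.2 to 130 in WT and 88.8 to 15768 in Nod2-/- livers, the highest in mouse 7, and macrophage marker sums 1478 to 2650 and 1778 to 4648. All 4 tested lung epithelium markers were lower in Nod2-/- livers at an unadjusted p under 0.05, beside 10.2% of all tested genes. Lung marker sums were 213 to 3022 in WT and 38.1 to 477 in Nod2-/- livers. The 6 pancreas acinar markers had at most 3 counts in every library. Sums of stellate cell markers were 3601 to 7241 and 3995 to 5404, highest in WT mouse 3, those of endothelial markers 2251 to 3144 and 2456 to 3313, and those of T cell markers, of which 1 of 7 was tested, 50.4 to 88.4 and 36.4 to 161. The part of these cells in the enzyme values was not tested.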

How the data were processed

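Liver RNA of 6 WT and 7 Nod2-/- mice was sequenced with 1 stranded polyA library per mouse. Per the submitters' processing notes, the authors used Trimmomatic 0.33 and TopHat2 2.1.1 with GRCm38. The deposited table gives raw counts of reads per gene. The counter, and whether strand was used, are not given in the sources used here. The table held 53465 genes (GENCODE M21 positions), and 1 unnamed entry was excluded. WT libraries summed to 14886273 to 20579984 counts and Nod2-/- libraries to 13824780 to 19391431. All 36 pairs of libraries within a genotype differed beyond sampling noise (chi-square over its degrees of freedom, 11.4 to 179), and each library counted as 1 sample.

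The filter filterByExpr kept 13545 genes, with 99.9% of counts, for the test in edgeR 4.0.16 under R 4.3.3 (TMM, glmQLFit, glmQLFTest, no covariate, two-sided, threshold 0.05 after Benjamini-Hochberg adjustment). Single genes were also compared by exact permutation of log2(CPM + 0.5) over 1716 splits of the 13 mice, and ratios of log2(normalized count + 1) likewise. The exact p-value is the share of splits with a difference in means at least as large as the observed one. It was left unadjusted for single genes. Correlations used 100000 permutations within genotype. The standard error was derived from the fold change and the quasi-likelihood F statistic. Promoter windows came from RefSeq (GRCm38.p6).

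The members and gene lists were chosen with earlier results of these data known. Named are the 10 enzymes, genes of the 10 lists with p under 0.05 and a few others of them as examples, and the 5 genes of average log2 CPM of at least 1 most like Phgdh, Mthfd2 and Shmt2. Example genes above that p (Tyms, Sfxn1, Trib3, Ddit3) and some cell type markers were named after their values were seen. A few genes that these rules name are left out here. Alternatives were DESeq2 1.42.0, voom with quality weights of limma 3.58.1, RLE normalization, no low count filter, a floor of 10 counts per mouse, the replicate number as a block, and leaving out each mouse. edgeR was tested on simulated data.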

Additional observations from a re-analysis of the deposited data

Results flagged for a closer look

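Dixon's test was run on the normalized counts of the 10 enzymes and on the 4 log2 ratios, in 28 groups of livers. It marked 1 liver far from the others of its genotype in 6 groups. Its nominal rate of 1 in 20 groups holds for independent, normally distributed values. The counts were not put on a log scale, some spread widely, and the enzymes were correlated, so no excess over chance is read from this. All 6 were WT mouse 3 or Nod2-/- mouse 4. WT mouse 3 had 47.9 normalized counts of Phgdh (next WT liver 17.7), 233 of Psat1 (next 59.8) and 49.7 of Aldh1l2 (next 9.94). Nod2-/- mouse 4 had 315 of Phgdh (next Nod2-/- liver 111) and 614 of Mthfd1l (next 238), and its log2 ratio of Mthfd1l to Mthfd1 was -2.21 (next -3.87). The same livers had the most Spp1 of their genotype, 3456 and 6425 normalized counts, and the most Krt7, 25.3 and 26.9. Sox9 ranked 2 in its genotype in both, at 60.6 and 156. Krt19 was 13.6 and 19.9 and Epcam 20.8 and 29.9, within the range of the other livers of each genotype. WT mouse 3 was also the highest WT liver in several other marker sums. The part of other cell types in these values was not tested.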

How the results depend on the processing

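The number of genes past 5% FDR was 157 in the edgeR test, 1209 with DESeq2 (630 higher, 579 lower), 843 with voom, and 41 (without WT mouse 1) to 1156 (without WT mouse 3) when 1 mouse was left out. Of the 10 enzymes 1 passed in edgeR, 3 with DESeq2, 3 with voom, and 0 to 6 when 1 mouse was left out: 0 without WT mouse 1, 2, 4 or 5 or Nod2-/- mouse 4, 6 or 7, and 6 without WT mouse 3. No direction of an enzyme turned under any alternative that was run. Ranges of the log2 fold change over these fits were 1.74 to 3.86 for Phgdh, 0.86 to 2.62 for Psat1, 0.73 to 1.36 for Mthfd1l, -0.42 to -0.32 for Shmt2 and 1.09 to 1.31 for Mthfd2, whose adjusted p was 0.0214 to 0.0948. Aldh1l2 was under the expression filter without Nod2-/- mouse 4 or 7, and had 0.82 to 2.47 in the other 11 fits. Phgdh, Psat1 and Aldh1l2 had no value with at least 10 counts required in every mouse. The log2 ratio differences were -0.19 to -0.02 for Shmt2/Shmt1, 1.23 to 1.49 for Mthfd2/Mthfd1, 0.99 to 1.47 for Mthfd1l/Mthfd1 and 1.31 to 2.34 for Aldh1l2/Aldh1l1. The highest for Aldh1l2/Aldh1l1, without WT mouse 3, passed (exact permutation test, adjusted p 0.0236). With 1 to 9 counts of Aldh1l2 in the 5 WT livers left, that pass lends no support. The cause of these differences was not tested.

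Same-numbered mice of the genotypes did not deviate together (correlations of -0.30 to 0.30, and 0 of 6 numbers correlated best with their own), so the numbers do not pair them. With the replicate number as a block, 35 genes (17 higher, 18 lower) and 0 of 10 enzymes passed (Mthfd2 log2 fold change 1.08, edgeR adjusted p 0.126), and the ratio differences over 6 pairs were 1.30 for Mthfd2/Mthfd1 and 1.33 for Mthfd1l/Mthfd1 (both adjusted p = 0.125, exact sign flips). Low counts limit Phgdh and Aldh1l2, at 1.03 normalized counts in the lowest WT liver.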
